A study of Mus musculus with 32 samples.

Results

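The genes described here are those of the mouse major histocompatibility complex (MHC) and of the machinery that loads and displays peptides on MHC molecules. A gene was a member if its platform symbol began with H2- or was B2m, Tap1, Tap2, Tapbp, Cd74, Ciita, Nlrc5, Erap1, Psmb8, Psmb9, Psmb10 or Ctss, and if a probe set carried that symbol alone. This gave 41 genes with 59 probe sets, out of 19938 genes and 35556 probe sets on the array. Nlrc5 had 19 probe sets and each of the other genes 1, and a gene was read from its brightest probe set. Of the 41 genes, 34 lie on chromosome 17. The probe sets of the classical class I genes H2-K1 and H2-D1 name both genes and were therefore not members.

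RNA from whole blood and cerebellum of the same mice was hybridized to Affymetrix Mouse Gene 1.0 ST arrays, 1 array for each mouse and tissue. The groups were 5 Fmr1-KO mice and 5 wild-type (WT) mice of the same experiment, which the study's methods give as C57BL/6 congenic, and 3 Tsc2+/- mice and 3 WT mice, given as a mixed 129/SvJae and C57BL/6J background. Fmr1-KO models fragile X syndrome and loss of 1 Tsc2 copy models tuberous sclerosis complex, and both alleles are carried in every cell of the animal. All mice were untreated young adults. The labels call them female and the methods male. Xist lay between 17.3 and 62.6 in blood and between 44.5 and 106 in cerebellum, and the Y-linked Eif2s3y between 226 and 875 in blood and between 403 and 835 in cerebellum. The Y-linked Kdm5d was at 265 or more and Uty at 337 or more on every array. Every array thus had Y-linked signal and little Xist, as male mice do and as the methods state. Strain and experiment coincide, so the mixed-background and the C57BL/6 mice cannot be told apart from the 2 experiments.

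Values are intensities on a linear scale, and each difference is one of log2 intensities. Fmr1 itself was lower in Fmr1-KO mice by -1.53 on the log2 scale (limma adjusted p = 0.000353) and Tsc2 in Tsc2+/- mice by -0.34 (adjusted p = 0.999). The cerebellum array of Fmr1-KO mouse 1 stood apart, with a median correlation of 0.851 with its group where all other cerebellum arrays had 0.919 or more, and results that rest on it are also given without it. In blood, Fmr1-KO mouse 5 had the lowest median intensity (134), and the platelet marker sums of Tsc2+/- mouse 2 (2306) and the Tsc2 WT mouse 3 (1633) were far below all others (21111 or more). The study describes WT mice as littermates of the mutants but not which mice share a litter. Within a tissue, p-values therefore measure the spread between these mice. Fits over both tissues took the blood and cerebellum arrays of a mouse as independent, so their p-values measure the spread between arrays. The correlation within a mouse was 0.008 in the Fmr1 fit, 0.06 in the Tsc2 fit and -0.09 in the WT fit.

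MHC class I molecules are a heavy chain paired with the light chain β2-microglobulin (B2m) and show peptides made inside the cell to cytotoxic T cells. The peptides are cut by the proteasome, whose immune form carries Psmb8, Psmb9 and Psmb10, are pumped into the endoplasmic reticulum by Tap1 and Tap2, are trimmed by Erap1 and are loaded with the help of tapasin (Tapbp). MHC class II molecules, made by B cells, dendritic cells and activated macrophages, show peptides from engulfed proteins to helper T cells. Their assembly needs the invariant chain Cd74, the protease Ctss and the exchange factors H2-DM and H2-O. Ciita switches on the class II genes and Nlrc5 the class I genes, both through DNA elements near the start site that include the Y box, a reverse CCAAT element. In the healthy brain MHC molecules are scarce and are found mainly on microglia and vessel cells.

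Promoter windows of 250 bases before the start, taken from RefSeq (GRCm38.p6), were searched for 30 of the 41 genes. Cd74 was not among these 30, so its promoter is not described here. Shown here are the last 150 bases before the start for genes the results turn on, which are a class II chain and the class II modulator H2-Ob, a class I heavy chain, the light chain, the divergent pair Tap1 and Psmb9, and, for contrast, the M10 gene H2-M10.2, whose tissues did not differ past the test. Capitals mark the letters ATTGG or CCAAT (Y box), TGACG or CGTCA (core of the X2 box) and the interferon-stimulated response element (the letters GAAA repeated after a gap of 2 free bases), searched on both strands.
H2-Aa (chr17:34287824-34287973, minus strand): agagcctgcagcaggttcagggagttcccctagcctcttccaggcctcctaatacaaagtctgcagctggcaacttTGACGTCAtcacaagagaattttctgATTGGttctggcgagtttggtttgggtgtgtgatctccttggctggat
H2-Ob (chr17:34238755-34238904, plus strand): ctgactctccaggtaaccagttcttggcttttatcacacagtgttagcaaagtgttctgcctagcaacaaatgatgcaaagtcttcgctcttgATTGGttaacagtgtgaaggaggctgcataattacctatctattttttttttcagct
H2-Q4 (chr17:35379467-35379616, plus strand): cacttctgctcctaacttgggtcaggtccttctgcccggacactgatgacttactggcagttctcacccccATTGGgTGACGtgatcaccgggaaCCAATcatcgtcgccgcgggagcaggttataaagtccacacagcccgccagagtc
B2m (chr2:122147537-122147686, plus strand): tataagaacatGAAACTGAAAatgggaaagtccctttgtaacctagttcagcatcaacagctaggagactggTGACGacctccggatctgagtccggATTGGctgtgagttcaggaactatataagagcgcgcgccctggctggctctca
Tap1 (chr17:34187406-34187555, plus strand): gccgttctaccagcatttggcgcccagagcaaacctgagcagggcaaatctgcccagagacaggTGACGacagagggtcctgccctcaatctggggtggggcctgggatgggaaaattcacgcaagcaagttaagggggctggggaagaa
Psmb9 (chr17:34187331-34187480, minus strand): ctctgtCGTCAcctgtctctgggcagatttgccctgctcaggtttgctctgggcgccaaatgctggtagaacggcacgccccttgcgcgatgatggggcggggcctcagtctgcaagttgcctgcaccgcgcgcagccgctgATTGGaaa
H2-M10.2 (chr17:36286422-36286571, minus strand): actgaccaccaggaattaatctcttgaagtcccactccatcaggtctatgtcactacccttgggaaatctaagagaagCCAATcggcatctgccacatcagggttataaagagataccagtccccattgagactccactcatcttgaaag
In H2-Aa the X2 letters occur on both strands and overlap, just before the Y box. The windows of Tap1 and Psmb9 overlap on opposite strands, and the X2 letters of both are the same bases. Within 250 bases the Y box letters were present in 24 of the 30 genes, and in 78.1% of the members' 32 windows against 33.8% of 32851 windows of all genes. The X2 letters were in 34.4% against 17.8%, the interferon element in 6.25% against 2.98%, and the κB letters GGGATTCC in none of the members' windows against 0.889%. The Y box letters were found in 6 of 7 genes of class II chains and loading, in 6 of 10 of class I chains, loading and immunoproteasome, and in 11 of 12 M genes. Cd74 is not one of the 7. A match is a description of the sequence and was not tested as a binding site.

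Cerebellum was first set against blood of the 8 WT mice. At a limma adjusted p under 0.05, 30 of the 41 genes were lower in cerebellum and 2 were higher, against 22.2% of all probe sets lower and 40.9% higher. The median log2 difference was -1.94 for the 41 genes and 0.29 for all probe sets, or -2.34 and -0.11 once each array had been centred on its median. In bulk tissue, fewer cells of a type and less RNA in each cell cannot be told apart.

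Class II genes showed the greatest measured distance between the tissues. The invariant chain Cd74 ranged from 31.5 to 158 (median 52.1) in WT cerebellum and from 6114 to 10400.0 (median 7689) in WT blood, a log2 difference of -7.07 (standard error 0.28, adjusted p = 6.3e-12). H2-Ob, a subunit of the modulator of peptide exchange, ranged from 13.6 to 55.1 (median 27.8) in WT cerebellum and from 2966 to 4978 (median 3402) in WT blood (-6.99). The class II α chain H2-Aa ranged from 24.3 to 80.9 (median 40.5) in WT cerebellum and from 4226 to 7136 (median 5222) in WT blood (-6.89). In none of these genes did the tissues overlap. H2-Ab1 (-6.64), H2-Oa (-6.59), H2-Eb1 (-5.28), H2-Eb2 (-5.23), H2-DMa (-4.61) and their transactivator Ciita (-3.62) were lower in the same way. None of these 9 genes exceeded the array's background (the 95th percentile of olfactory receptor genes) on any cerebellum array, so their differences are lower bounds on the distance between the tissues. The pseudogene H2-Ea was the exception among the 5 class II chains, with 0.60 (adjusted p = 0.11). Ctss, the protease that trims the invariant chain and is also abundant in microglia, kept 233 to 475 (median 331) in WT cerebellum, with 1005 to 1659 (median 1209) in WT blood (-1.94).

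Class I was less far apart. B2m stood at 1379 to 6428 (median 3578) in WT cerebellum and 11475 to 15071 (median 14432) in WT blood (-2.11, standard error 0.21). All 5 heavy chain genes of the Q and K group were lower in cerebellum, with H2-Q4 at -3.71, H2-Q2 at -2.60 and the secreted H2-Q10 at -1.42. The others, H2-Q5 (-3.28) and H2-K2 (-1.53), are listed as transcribed pseudogenes. H2-T24 was at -3.47. The pseudogene H2-Bl went the other way (0.67), with 321 to 480.1 (median 439) in WT cerebellum and 203 to 395 (median 244) in WT blood.

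The loading machinery was lower in cerebellum throughout, with Tap1 at -3.45, Tapbp at -2.68, Erap1 at -1.51 and Tap2 at -1.15. The 3 immunoproteasome subunits were uneven. Psmb8 (-3.24) and Psmb9 (-1.77) were far lower in cerebellum, while Psmb10 differed by only -0.48, with 232 to 471 (median 309) in WT cerebellum and 365 to 638 (median 426) in WT blood. Nlrc5 at its brightest probe set differed by -0.53, but over its 19 probe sets the median was -1.25 and 16 were called lower. The brightest probe set of that gene was thus nearer to no difference than most of its others.

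The 12 M genes lay mostly close to background. M10 genes are known from sensory neurons of the vomeronasal organ. Only H2-M3 (-2.81), which presents formylated peptides, H2-M10.4 (-2.82) and H2-M11 (-0.59) were lower in cerebellum, and H2-M9 (0.52) was higher, though with arrays centred on their medians it differed by 0.13 and no longer passed. H2-M11 and H2-M9 exceeded the array's background on no array of either tissue, so their differences lie near background. As a gauge of the array's background, 1015 olfactory receptor genes were used, which neither tissue is known to need. In blood, 26 of the 41 members exceeded the 95th percentile of these genes on all 16 arrays, and the 8 that did so on no array were all M genes. In cerebellum, B2m, H2-Bl and Nlrc5 did so on all 16 arrays, and Ctss, H2-Ke6, H2-T10, Psmb10 and Tapbp on 15. The 95th percentile itself ranged from 139 to 578 between these arrays. In that tissue 23 members exceeded it on none. Differences of these dim members within cerebellum are therefore differences near background, and where they were bright in blood, as Psmb8, H2-T24 and H2-Q10 were, their tissue differences are lower bounds too.

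**Figure D1:**
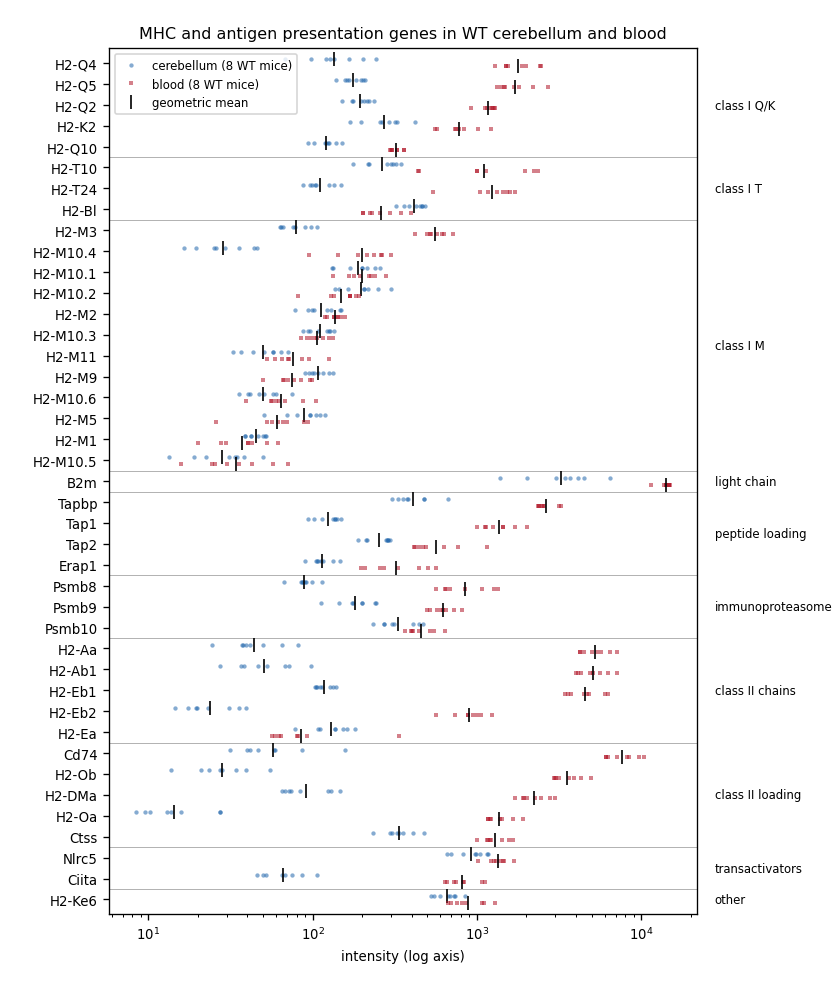
Intensity (log axis) of the 41 genes in WT mice, grouped by role. Small points are single arrays, circles for cerebellum and squares for blood (8 each), and vertical ticks are geometric means. The class II chains and loading genes other than H2-Ea and Ctss lie at or below 158 in cerebellum and show the widest gaps, while most M genes overlap between tissues.

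Of related genes outside the set, 31 other antigen presentation genes had 8 higher and 16 lower in cerebellum at an adjusted p under 0.05, 21 regulators of MHC genes had 4 higher and 14 lower, and 21 interferon-stimulated genes had 0 higher and 19 lower. Over all probe sets 40.9% were higher and 22.2% lower.

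The study asked whether loss of Fmr1 changes expression in blood or brain. In the fit over both tissues, 1 of the 41 genes passed an unadjusted p under 0.01, against 0.304% of all probe sets, and none passed an adjusted p under 0.05. That gene was H2-M5, a class I M gene, at 0.59 (standard error 0.20, limma adjusted p = 0.978). In blood H2-M5 stood at 112, 82.8, 123, 65.7 and 135 in Fmr1-KO mice, against 69.7, 53.1, 61.4, 56.6 and 26.0 in WT mice. The ranges overlapped, with 1 Fmr1-KO mouse below the highest WT mouse, and 1 WT mouse was far below the rest (0.98, exact permutation p = 0.016). H2-M5 did not exceed the olfactory receptor background on any blood array, and without the cerebellum array of Fmr1-KO mouse 1 its difference over both tissues was 0.54 and it no longer passed p under 0.01.

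In Fmr1-KO blood, 1 of 41 members (H2-M5 again) passed p under 0.01, against 0.582% of all probe sets. The means of 35 of the 41 members were lower, with a median log2 difference of -0.17 against -0.07 for all probe sets, of which 37.2% were higher. Rescaling the arrays by quantiles or by their medians left 29 of 41 lower. Without Fmr1-KO mouse 5, 34 of 41 were lower, with a median of -0.09 against -0.04 for all probe sets, and 0 members passed p under 0.01, against 0.526% of all probe sets. The 5 class II chains ran from -0.34 to -0.14, the 5 class II loading genes from -0.29 to -0.13, the 4 peptide loading genes from -0.28 to -0.17 and the 3 immunoproteasome subunits from -0.42 to -0.18. None of these genes passed the test.

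Psmb10 was the lowest of the immunoproteasome subunits, at 314, 285, 341, 423 and 193 in Fmr1-KO blood, against 445, 397, 402, 365 and 407 in WT blood (-0.42, exact permutation p = 0.04). Tap1 stood at 1004, 995, 845, 1250.2 and 822 in Fmr1-KO blood, against 1439, 1142, 1001, 1120.0 and 1255 in WT blood (-0.28, exact permutation p = 0.071). In both genes the groups overlapped, and Fmr1-KO mouse 5 was the lowest of all. The same mouse was lowest in Cd74, at 6066, 6754, 6138, 7073 and 4999.6 in Fmr1-KO blood, against 8229.9, 6258, 6117, 6114 and 7148 in WT blood (-0.13, exact permutation p = 0.31). Its array had the lowest median intensity of the 16 blood arrays, the lowest median correlation with its group (0.762) and the most values under 16 (12.4%), and its summed markers of T, B, NK and dendritic cells and of monocytes were all the lowest of the Fmr1-KO group. The B cell sums, over 7 genes, were 16488, 18699.8, 15824, 21335 and 12925 in Fmr1-KO blood and 23249, 16353, 16733, 16070.1 and 19854 in WT blood, and the part of the array and of the cell types in these values was not tested. Among members with a group mean of 64 or more, the 3 highest log2 differences in Fmr1-KO blood were H2-M5 (0.98), H2-M9 (0.14) and H2-M2 (0.03) and the 3 lowest Psmb10 (-0.42), H2-M3 (-0.36) and H2-Eb2 (-0.34). H2-M5 reached that mean only in the Fmr1-KO group (104, against 53.4 in WT mice), so its place among the highest is partly set by that limit. Across the 7 T cell, 7 B cell and 6 NK cell markers, 0, 1 and 0 had higher means in Fmr1-KO blood, and 1 NK cell marker was lower at p under 0.01.

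In Fmr1-KO cerebellum no member passed p under 0.01, against 0.197% of all probe sets (0 also at p under 0.05, with no share of all probe sets given). The means of 33 of 41 members were higher, with a median of 0.14 against 0.02 for all probe sets, and without mouse 1 these were 30 of 41 and 0.09 against -0.01. After quantile normalization within cerebellum 26 of 41 were higher. That array set several of the largest values. H2-Eb2 stood at 175, 29.3, 27.8, 22.1 and 36.4 in Fmr1-KO cerebellum, against 31.1, 23.2, 19.6, 17.5 and 19.8 in WT cerebellum, and H2-M1 at 252, 45.6, 56.1, 40.5 and 48.9 against 51.4, 42.1, 49.8, 42.3 and 38.6. Mouse 1 was far above every other array in both, and without it the log2 differences were 0.39 for H2-Eb2 and 0.09 for H2-M1. The β chain H2-Eb1, in contrast, stood at 106, 151, 135, 165 and 185 in Fmr1-KO cerebellum, against 132, 106, 103, 105 and 139 in WT cerebellum (0.33, exact permutation p = 0.079), and mouse 1 was its lowest Fmr1-KO value. Without mouse 1 the difference was 0.45 (standard error 0.14, limma adjusted p = 1.00), the only member past p under 0.01 in that fit, which 0.36% of all probe sets passed. H2-Eb1 exceeded the olfactory receptor background on no cerebellum array, so its difference too lies near background. Among members with a group mean of 64 or more, the 3 highest log2 differences in Fmr1-KO cerebellum were H2-M1 (0.57), H2-Eb1 (0.33) and H2-M10.6 (0.26) and the 3 lowest H2-Q4 (-0.36), Psmb9 (-0.21) and B2m (-0.14). H2-M1 and H2-M10.6 reached that mean only in the Fmr1-KO group and with mouse 1 (252 and 115.0), and without it H2-M10.6 differed by 0.06. The test of whether the genotype difference differs between tissues called 0 members at p under 0.01, against 0.537% of all probe sets.

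For Tsc2+/- mice over both tissues, 0 of the 41 members passed p under 0.01, against 0.436% of all probe sets. At p under 0.05, 4 were higher and 1 lower, against 1.49% and 1.36% of all probe sets. The means of 34 of 41 members were higher, against 54.1% of all probe sets, with a median of 0.09 against 0.02. H2-Q10 (0.34), H2-M3 (0.33), Ctss (0.47) and H2-Oa (0.57) were the 4 higher ones and H2-M10.4 (-0.48) the lower one, each with a limma adjusted p of 0.999. The H2-Oa value rests on cerebellum, where the gene lay below background, as its blood means were 1504 in Tsc2+/- and 1486 in WT mice.

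In Tsc2+/- blood 0 members passed p under 0.01, against 0.298% of all probe sets, and 0 passed p under 0.05, with no share of all probe sets given. The means of 31 of 41 members were higher, against 57.1% of all probe sets, and 25 were after median-centring of the arrays. With 3 mice against 3 the exact test cannot go below 0.1. Secreted H2-Q10 stood at 411, 329.8 and 483 in Tsc2+/- blood, against 324, 302 and 297 in WT blood, and H2-M3 at 818, 723 and 738 against 611, 712 and 569. These 2 were the only members whose groups did not overlap, both higher (exact permutation p = 0.1), while 4.36% of all probe sets did so in that direction. Ctss, with 1465, 2071 and 2467 in Tsc2+/- blood against 1219.7, 1573 and 1005 in WT blood, overlapped (0.65, exact permutation p = 0.2). The monocyte marker sums, over 5 genes, were 10671, 14003 and 22407 in Tsc2+/- blood and 9364, 12219 and 8551 in WT blood, in the same order as Ctss within each group, and their part was not tested. H2-Ea had 1 value far from the rest, with 60.9, 87.7 and 39.5 in Tsc2+/- blood against 335, 81.2 and 59.3 in WT blood (-0.98, exact permutation p = 0.5). Among members with a group mean of 64 or more, the 3 highest log2 differences in Tsc2+/- blood were Ctss (0.65), H2-Q10 (0.39) and H2-K2 (0.35) and the 3 lowest H2-Ea (-0.98), H2-M10.4 (-0.38) and H2-T10 (-0.27). H2-Ea reached that mean only in the WT group, through its 1 high array (62.7 in Tsc2+/- mice against 158 in WT mice).

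In Tsc2+/- cerebellum 1 of 41 members passed p under 0.01, against 1.12% of all probe sets. This was H2-Oa, the α subunit of H2-O, at 26.3, 22.5 and 14.3 in Tsc2+/- cerebellum, against 10.27, 9.48 and 8.40 in WT cerebellum (1.12, standard error 0.24, limma adjusted p = 0.763, exact permutation p = 0.1). The groups did not overlap, but every value was far below the olfactory receptor background, and with 16 added before the log2 the difference was 0.53. Its partner H2-Ob stood at 31.7, 22.5 and 19.5 in Tsc2+/- cerebellum against 23.3, 20.8 and 39.1 in WT cerebellum, overlapping (-0.15, exact permutation p = 0.6). The pseudogene H2-Q5 was the other member whose groups did not overlap, with 168, 181 and 170.2 in Tsc2+/- cerebellum against 162, 138 and 168 in WT cerebellum (0.16), while 3.07% of all probe sets were higher without overlap. Among members with a group mean of 64 or more, the 3 highest log2 differences in Tsc2+/- cerebellum were B2m (0.85), H2-M3 (0.38) and H2-Ke6 (0.30) and the 3 lowest H2-DMa (-0.30), Ciita (-0.24) and Erap1 (-0.24). Ciita reached that mean only in the WT group (61.4 in Tsc2+/- mice against 75.3 in WT mice).

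B2m, well above background, stood at 3074, 4197 and 5187 in Tsc2+/- cerebellum, against 2023, 1379 and 4112 in WT cerebellum (0.85, standard error 0.42, exact permutation p = 0.2). In the Fmr1 experiment it stood at 3801, 3785, 3406, 4004 and 3529.9 in Fmr1-KO cerebellum, against 6428, 3034, 3712, 3444 and 4466 in WT cerebellum (-0.14). The genotype differences of the 2 models differed by 0.99 (limma adjusted p = 1.00), short of p under 0.01, which 0 of 41 members and 0.487% of all probe sets passed. How much choroid plexus the dissected tissue held varied among these mice. The summed intensity of 5 choroid plexus markers was 879.6, 14272 and 15376 in Tsc2+/- cerebellum and 7088, 639 and 14629 in WT cerebellum, in mouse order. In both of these groups the B2m value was highest where that sum was highest, while in C57BL/6 WT cerebellum the highest B2m value (6428) belonged to the mouse with the lowest sum (13961). Over the Fmr1 experiment the choroid plexus sums ranged from 13645 to 18889. In Tsc2+/-, Tsc2 WT and C57BL/6 WT cerebellum the mouse with the highest B2m also had the group's highest microglia and endothelium marker sums. These were 1349 and 2877 in Tsc2+/- mouse 3 and 1263 and 2978 in Tsc2 WT mouse 3. Fmr1 WT mouse 1 had 1312 and 2998. In Fmr1-KO cerebellum the mouse with the highest B2m (4004) was highest in neither. The part of choroid plexus, microglia or endothelium in the B2m difference was not tested.

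**Figure D2:**
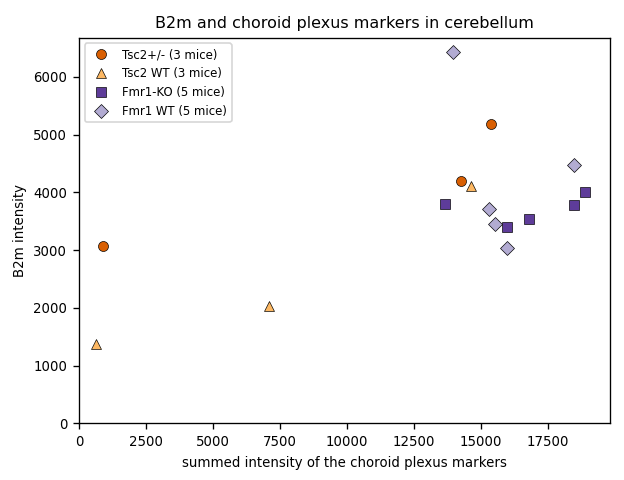
B2m intensity against the summed intensity of 5 choroid plexus markers in the 16 cerebellum arrays, 1 point per mouse with a symbol for each group. Of the 3 arrays with sums at or below 7088, the Tsc2+/- mouse has a B2m value of 3074 and the 2 WT mice have the lowest of all, 1379 and 2023.

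**Figure D3:**
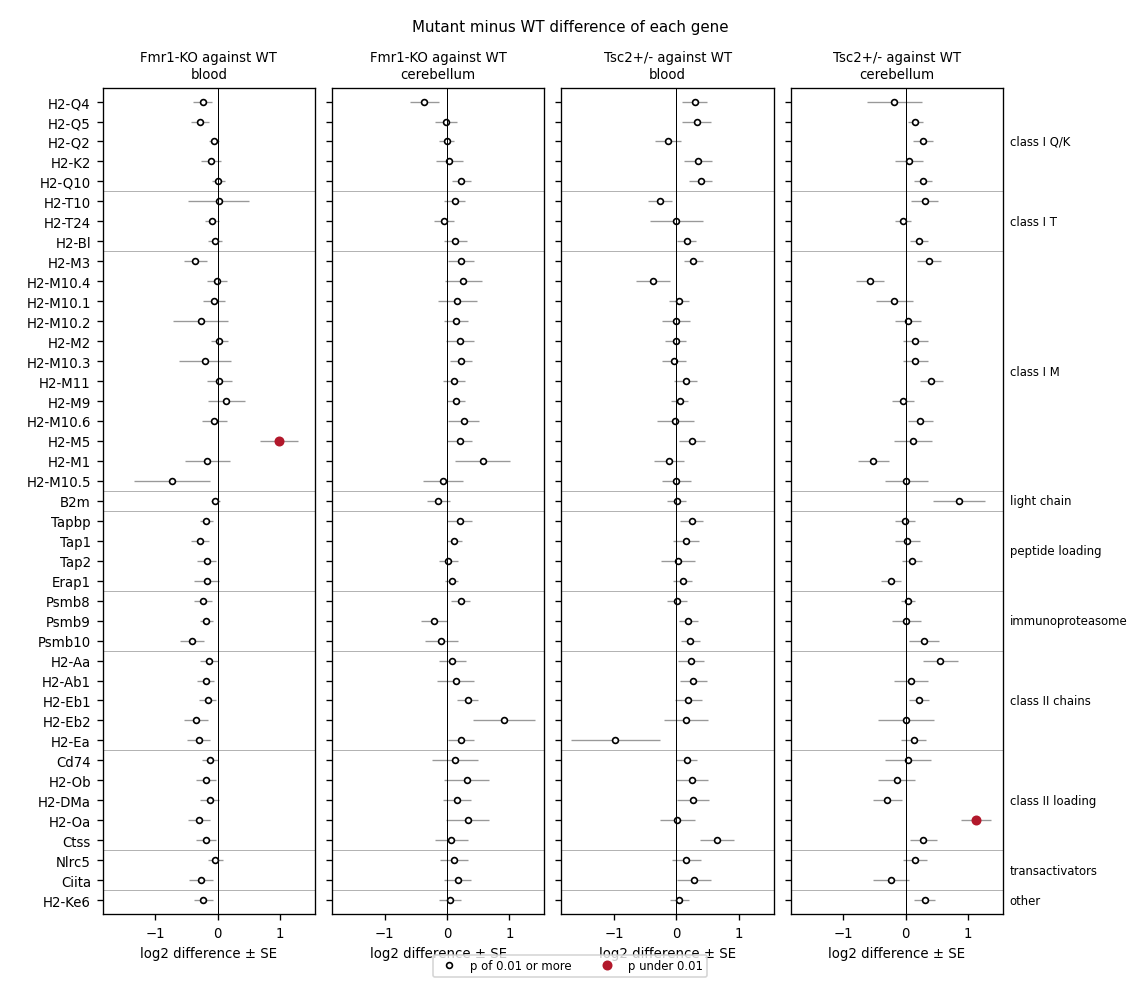
Log2 difference, mutant minus WT, with its standard error (horizontal axis) for each of the 41 genes in the 4 comparisons of 5 against 5 or 3 against 3 mice. Filled red points passed an unadjusted limma p under 0.01, which were H2-M5 in Fmr1-KO blood (0.98) and H2-Oa in Tsc2+/- cerebellum (1.12).

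Whether the genotype difference in blood differed between the models was tested by the interaction. It called 0 of 41 members at p under 0.01, against 0.509% of all probe sets. At p under 0.05 there were 6, against 3.63% of all probe sets, which were Ctss (0.83), Psmb10 (0.64), H2-M3 (0.63), H2-Q5 (0.61), Tapbp (0.42) and Psmb9 (0.37), all with the Tsc2+/- difference above the Fmr1-KO difference and an adjusted p of 1.00. Under the p under 0.01 criterion the Tsc2 genotype by tissue test likewise called 0 members, against 0.596% of all probe sets.

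The WT mice of the 2 experiments give the comparison of strains. In blood, 8 of the 41 members passed p under 0.01, 7 higher and 1 lower in the mixed-background WT mice, against 9.43% of all probe sets higher and 2.55% lower. None passed an adjusted p under 0.05, where 47 probe sets (0.132%) did. All probe sets together were shifted by a median of 0.22, which was -0.03 after quantile normalization within blood, and the members by 0.29 and 0.11. Of the 8 members, 4 still passed p under 0.01 after that normalization, 3 higher and 1 lower, against 4.96% of all probe sets higher and 5.19% lower. Without the Tsc2 WT mouse 3, 7 members were called higher and 0 lower, against 4.36% and 1.36% of all probe sets, and 5 of these were among the 8.

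Of the 7 higher members, 4 belong to peptide loading or the immunoproteasome. Erap1, the trimming peptidase, stood at 441, 559.9 and 500.2 in mixed-background WT blood, against 333, 208, 273, 258 and 196 in C57BL/6 WT blood (1.00, standard error 0.20, limma adjusted p = 0.068). Tap2 stood at 633, 766 and 1158 in mixed-background WT blood, against 418, 442, 467, 414 and 489 in C57BL/6 WT blood (0.89). Psmb8 stood at 1077, 1264 and 1335 in mixed-background WT blood, against 851, 638, 653, 563 and 688 in C57BL/6 WT blood (0.86). The groups did not overlap in any of the 3, and the exact permutation p was 0.018, the smallest that 3 against 5 mice allow. Psmb10 (0.50), H2-Bl (0.62) and H2-Ke6 (0.61), which encodes a steroid dehydrogenase rather than an MHC chain, were higher without overlap too. In all, 11 members were higher and 1 lower without overlap, against 18.3% and 5.77% of all probe sets.

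H2-T10, a class I gene that RefSeq lists as a transcribed pseudogene, had the greatest difference, with 2217, 2355 and 1965 in mixed-background WT blood, against 1129, 439, 998, 1005 and 441 in C57BL/6 WT blood (1.56, standard error 0.38, adjusted p = 0.07). Among C57BL/6 mice its values fell into a low and a high cluster in both genotypes, with 387, 1377, 1111, 1134 and 344 in Fmr1-KO blood. No such gap was seen in cerebellum, where H2-T10 stood at 437, 264, 291, 289 and 329.8 in Fmr1-KO mice and 218, 282, 344, 321 and 309 in WT mice. H2-M10.4 was the member that was lower, at 189, 143 and 94.5 in mixed-background WT blood, against 214, 261, 300.2, 264 and 235 in C57BL/6 WT blood (-0.89, adjusted p = 0.074). It exceeded the olfactory receptor background on only 9 of 16 blood arrays and on no cerebellum array, so its differences lie near background.

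The mutant mice form a second pair of groups of the same backgrounds, with no array shared with the WT comparison, but they differ in genotype as well. This comparison was added after the data had been seen. In blood, 18 of 41 members were higher in Tsc2+/- than in Fmr1-KO mice at p under 0.01 and 1 was lower, against 20.6% of all probe sets higher and 5.56% lower, and all 19 had an adjusted p under 0.05, as did 23.1% of all probe sets higher and 6.26% lower. After quantile normalization within blood 15 members were called higher and 5 lower at p under 0.01, 16 of them among the 19, against 11.2% of all probe sets higher and 13% lower. Without Tsc2+/- mouse 2 it was 15 higher and 1 lower, against 13.2% and 4.31%. Of the 8 members called in WT blood, 7 were among the 19 (87.5% of the 8, 36.8% of the 19), and H2-T10 was not (1.27). This overlap was not computed over all probe sets, and both comparisons hold the difference between the experiments. It is therefore not read as particular to the members. All probe sets were shifted by a median of 0.38, which was -0.01 after quantile normalization, and the members by 0.66 and 0.31.

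By role, all 4 peptide loading genes and all 3 immunoproteasome subunits were called higher, as were H2-Q4, H2-Q5 and H2-K2 of the 5 Q and K genes, 3 of 5 class II chains and 2 of 5 class II loading genes. Tap1 stood at 2314, 1659.5 and 1824 in Tsc2+/- blood, against 1004, 995, 845, 1250.2 and 822 in Fmr1-KO blood (0.98, standard error 0.18, adjusted p = 0.01). H2-Q4 stood at 3088, 2232 and 3003 in Tsc2+/- blood, against 1272, 1459.6, 1189.7, 1636 and 1066 in Fmr1-KO blood (1.07, adjusted p = 0.0088). Cd74 stood at 10263, 12399 and 9303 in Tsc2+/- blood, against 6066, 6754, 6138, 7073 and 4999.6 in Fmr1-KO blood (0.78, adjusted p = 0.012). None of these 3 overlapped. Nlrc5 at its brightest probe set was not called, but 14 of its 19 probe sets were higher at p under 0.01 (median 1.01 over the 19), as were 6 of 19 between the WT mice (median 0.54). B2m differed by -0.09 (exact permutation p = 0.089).

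Over both genotypes, 10 members were higher in all 6 blood arrays of the mixed background than in all 10 of C57BL/6 and 1 was lower, against 13.6% and 2.97% of all probe sets. Erap1 ranged from 441 to 559.9 (median 525) in the 6 arrays and from 175 to 333 (median 235) in the 10, and H2-Eb1 from 4799 to 8215 (median 5920.1) and 2822 to 4672 (median 3661). The others were Cd74, H2-Bl, H2-Ke6, H2-T10, Psmb8, Psmb10, Tap1 and Tap2, and the lower one was H2-M10.4. In cerebellum 0 members separated the 2 experiments in this way, against 0.253% of all probe sets higher and 0.16% lower.

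**Figure D4:**
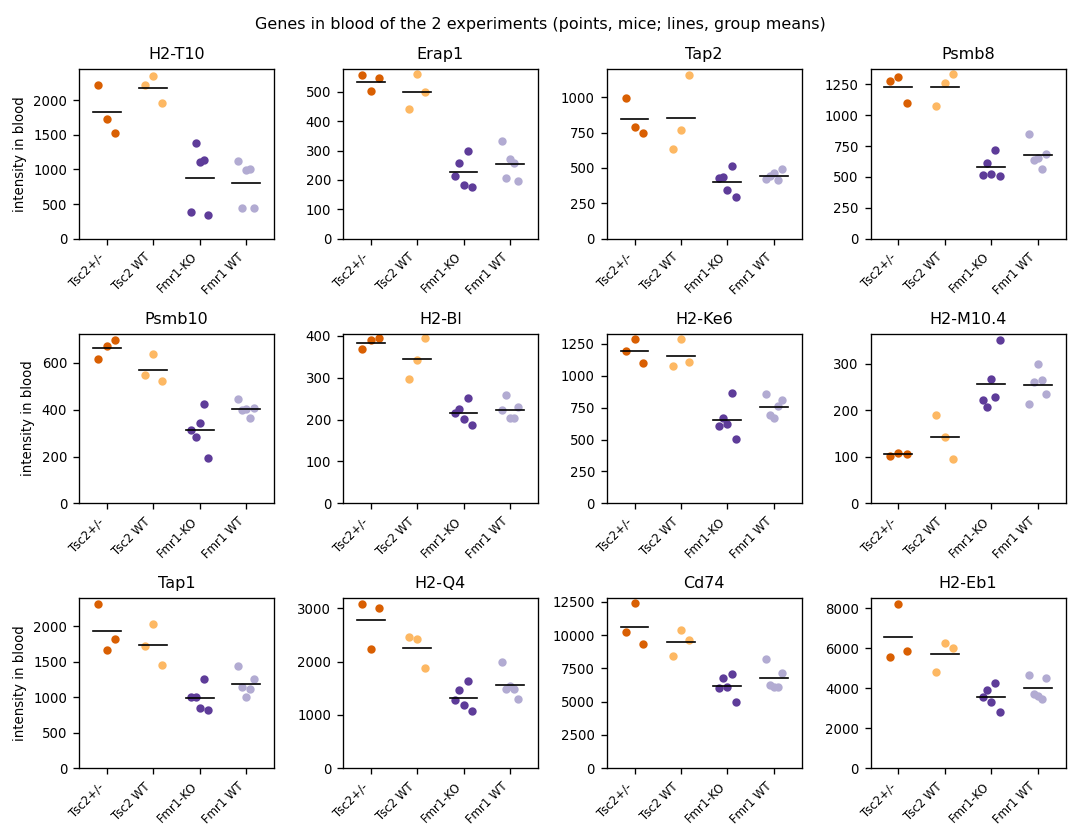
Intensity in blood (vertical axes from 0) of 12 members in Tsc2+/- mice (3), their WT mice (3), Fmr1-KO mice (5) and their WT mice (5). Points are mice and lines are group means. In 10 of the 12 panels, H2-M10.4 and H2-Q4 apart, all 6 mice of the mixed background lie above all 10 of C57BL/6.

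The blood of the 2 experiments also differed in its cell markers. In mixed-background against C57BL/6 WT blood, 7 of 7 T cell markers were higher at p under 0.01 (median 1.32), as were 4 of 6 NK cell, 2 of 6 dendritic cell and 0 of 7 B cell markers, while 2 of 3 red cell markers were lower. Of all probe sets, 9.43% were higher and 2.55% lower at that threshold. The 4 platelet markers were lower without overlap (median -1.96) but at p under 0.01 in none, and their sums were 32839.6, 21815 and 1633 in mixed-background WT blood and 36214 to 39406 in C57BL/6 WT blood. In Tsc2+/- against Fmr1-KO blood, 7 of 7 T cell (median 0.98), 5 of 6 NK cell (median 1.52), 2 of 6 dendritic cell and 2 of 7 B cell markers were higher at p under 0.01, 2 of 3 red cell markers were lower, and the 4 platelet markers were lower without overlap (median -1.73). Between these mutant mice 20.6% of all probe sets were higher and 5.56% lower at p under 0.01. The summed T cell markers were 21634, 25839 and 47949 in mixed-background WT blood and 12969, 10901, 12569.8, 12767 and 12028 in C57BL/6 WT blood. The summed B cell markers were 22723, 24434 and 20431 in mixed-background WT blood and 16070 to 23249 in C57BL/6 WT blood. In Tsc2+/- blood the B cell sums were 26478, 32337 and 20732, against 16488, 18699.8, 15824, 21335 and 12925 in Fmr1-KO blood. What these cell types contribute to the members' differences was not tested. Over the 16 blood arrays the array with the highest B cell sum, Tsc2+/- mouse 2, also had the highest Cd74, and the array with the lowest, Fmr1-KO mouse 5, the lowest.

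**Figure D5:**
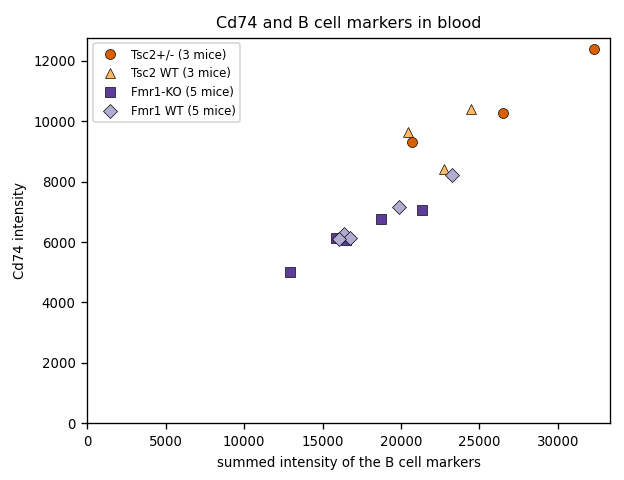
Cd74 intensity against the summed intensity of 7 B cell markers in the 16 blood arrays, 1 point per mouse with a symbol for each group. Both axes start at 0. The highest array is Tsc2+/- mouse 2 (12399) and the lowest Fmr1-KO mouse 5 (4999.6).

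Among related genes outside the set, 5 of 31 other antigen presentation genes were higher and 0 lower in mixed-background WT blood at p under 0.01, 7 of 21 regulators of MHC genes were higher and 1 lower, and 2 of 21 interferon-stimulated genes were higher and 2 lower. In the mutant mice the corresponding counts were 14 and 0 of 31, 12 and 0 of 21, and 2 and 5 of 21. Of all probe sets, 9.43% were higher and 2.55% lower between the WT mice, and 20.6% and 5.56% between the mutant mice.

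In cerebellum, 1 of 41 members passed p under 0.01 between the WT mice, against 1.29% of all probe sets. It was H2-Oa again, at 10.27, 9.48 and 8.40 in mixed-background WT cerebellum, against 27.2, 13.8, 13.1, 15.7 and 27.1 in C57BL/6 WT cerebellum (-0.97, adjusted p = 0.558). The mixed-background WT arrays here are the same that its Tsc2+/- difference rests on. Between the mutant mice 0 members passed in cerebellum, against 1.21% of all probe sets.

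Over both tissues 3 of 41 members passed p under 0.01 between the WT mice. Erap1 was higher (0.63) and H2-M11 (-0.53) and H2-T24 (-0.52) were lower in the mixed background, against 5.93% of all probe sets higher and 1.96% lower. H2-M11 exceeded the olfactory receptor background on no array of either tissue, so its difference lies near background. In cerebellum H2-T24 exceeded it on no array and Erap1 on 1 of 16. Whether the difference between the WT mice itself differed between tissues was tested in a further fit, also added after the data had been seen. At p under 0.01, 11 of 41 members differed, 10 with a lower strain difference in cerebellum and 1 with a higher one, against 5.66% and 2.25% of all probe sets. They included H2-T10 (-1.92), Tap2 (-1.05), H2-Bl (-0.91, adjusted p = 0.048), Psmb8 (-0.90), Psmb9 (-0.81), Tap1 (-0.76) and Erap1 (-0.74), and in the other direction H2-M10.4 (1.35). H2-Bl alone passed an adjusted p under 0.05, and after quantile normalization within each tissue 3 members passed p under 0.01, 1 higher and 2 lower, against 5.07% and 2.91% of all probe sets.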

How the data were processed

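The deposited table holds 1 intensity per probe set on a linear scale for each of 32 arrays, from the authors' PLIER model, fitted after probe-level quantile normalization of the arrays together. Every column was matched to a labelled sample. The log2 of each intensity was taken without an offset. Limma 3.58.1 in R 4.3.3 (lmFit, eBayes) fitted all 35556 probe sets, with Benjamini-Hochberg adjustment over all of them. Fits over both tissues had tissue and genotype (or experiment) as terms, and fits within a tissue had 1 term. The unadjusted p under 0.01 follows the study's methods. Single genes were also compared by two-sided exact permutation of the mouse labels.

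Gene symbols came from the platform annotation. The members, the marker lists and the related lists were chosen with earlier results of these data known. Values are given for the key genes of each step, for members past p under 0.01, for members whose groups do not overlap in a tissue, and for the 3 highest and 3 lowest differences among members with a group mean of 64 or more. The labels number the mice, so blood and cerebellum of 1 number are 1 animal, and the mouse as a block left the count of members that differ between tissues at 32. The script was tested on simulated data with known changes. The contrast of the mutants across experiments and the test of strain by tissue were chosen later, with the data in view. Alternatives were 16 added before log2, quantile or median scaling, no moderation, a filter on mean intensity under 64, a fit over 32 arrays, the mean over a gene's probe sets, blocks by replicate number or mouse, the methods' t-test and leaving out each mouse. The number of arrays limits the precision.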

Additional observations from a re-analysis of the deposited data

Results flagged for a closer look

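In groups of 5 mice, Dixon's criterion singled out a mouse in 11 of 164 member-by-group tests, where about 1 in 20 would be singled out by chance. Of these, 4 were the cerebellum array of Fmr1-KO mouse 1, which was high in H2-M1 (252, others 40.5 to 56.1), H2-Eb2 (175, others 22.1 to 36.4) and H2-M10.4 (52.2, others 23.7 to 29.6) and low in Ctss (167, others 375 to 424). Another 4 were the cerebellum array of Fmr1 WT mouse 1, which was high in Cd74 (158, others 39.6 to 57.9) and H2-DMa (146, others 65.3 to 74.3) and low in Tap2 (190.0, others 281 to 295) and H2-M10.3 (94.1, others 123 to 136). The remaining ones were a high H2-Q4 in cerebellum of Fmr1-KO mouse 4 (171), a low H2-M5 in blood of Fmr1 WT mouse 5 (26.0) and a low Tap1 in cerebellum of Fmr1 WT mouse 5 (114).

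The strain difference between WT mice differed between the tissues at p under 0.01, with a negative value where it was lower in cerebellum, in H2-T10 (-1.92), H2-Oa (-1.11), Tap2 (-1.05), H2-M10.1 (-0.93), H2-Bl (-0.91), Psmb8 (-0.90), H2-Q5 (-0.82), Psmb9 (-0.81), Tap1 (-0.76), Erap1 (-0.74) and H2-M10.4 (1.35). Of all probe sets, 5.66% passed as lower and 2.25% as higher in cerebellum. After quantile normalization within each tissue 1 member passed as higher and 2 as lower, against 5.07% and 2.91% of all probe sets.

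Among 10 probe sets that name several genes, and so were not members, those below passed p under 0.01. The one naming H2-Q6 and H2-Q8 was higher in Tsc2+/- than in WT mice over both tissues (0.45, limma adjusted p = 0.999). It was also higher in cerebellum (0.54, limma adjusted p = 0.858). Values there were 87.7, 109 and 92.5 in Tsc2+/- mice against 62.6, 71.2 and 65.0 in WT mice. All lay below the lowest olfactory receptor 95th percentile of the cerebellum arrays (139), so this difference lies near background. Of all probe sets, 0.436% passed over both tissues and 1.12% in cerebellum. The genotype difference in blood was higher in the Tsc2 than in the Fmr1 experiment for a probe set naming H2-D1, LOC547349 and H2-K1. It was higher by 0.57 (limma adjusted p = 0.9999), and 0.509% of all probe sets passed that test. In blood of Tsc2+/- against Fmr1-KO mice, the probe set of H2-Q6 and H2-Q8 was higher by 1.02. Those naming H2-K1, LOC547349 and H2-D1 were higher by 0.98 and 0.77, and that of H2-DMb2 and H2-DMb1 by 0.92. Those naming Rps3a1 and Tapbp were higher by 0.60 and 0.61. In that comparison 20.6% of all probe sets were higher at p under 0.01.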

How the results depend on the processing

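A difference of most members between cerebellum and blood held in every alternative run. In either direction together, 32 to 35 of 41 members were called, and 31 to 33 with single mice left out. In the main fit 30 of the 32 called were lower in cerebellum and 2 higher. The other counts rest on few genes. Counts in this paragraph are given without the share of all probe sets that passed in the same refit. A change in a count can therefore not be told from a change over all probe sets. For Fmr1-KO over both tissues 1 became 0 after quantile normalization, without moderation and without the cerebellum array of Fmr1-KO mouse 1. It ranged from 0 to 2 with single mice left out (2 without Fmr1-KO mouse 4, 1 without Fmr1-KO mouse 2 or WT mouse 3, otherwise 0). In Fmr1-KO blood 1 became 0 after quantile or median scaling, without moderation and by the methods' t-test, and was 0 to 1 with mice left out (1 without Fmr1-KO mouse 4 or WT mouse 1, otherwise 0). In Fmr1-KO cerebellum 0 became 1 without the array of Fmr1-KO mouse 1, and 0 to 1 with mice left out (1 also without WT mouse 1). For Tsc2+/- over both tissues 0 became 1 without moderation and 1 over all 32 arrays, and 0 to 2 with mice left out (1 without Tsc2+/- mouse 1 or 3, 2 without WT mouse 1 or 3). In Tsc2+/- cerebellum 1 became 0 without moderation, with the filter on dim probe sets and by the t-test, 2 over all 32 arrays, and 0 to 3 with mice left out (0 without Tsc2+/- mouse 2 or WT mouse 2, 3 without WT mouse 1, 2 without WT mouse 3). Between the WT mice over both tissues 3 became 6 over all 32 arrays, and 1 to 4 with mice left out (1 without Tsc2 WT mouse 2 or 3 or Fmr1 WT mouse 2). In WT blood 8 became 4 after quantile normalization and 5 by the t-test, and 3 to 11 with mice left out (3 without Tsc2 WT mouse 2). In WT cerebellum 1 became 0 with 16 added, quantile or median scaling, no moderation, the dim filter and the t-test, 2 over all 32 arrays, and 0 to 7 with mice left out (7 without Tsc2 WT mouse 1, 3 without Fmr1 WT mouse 1, 0 without Tsc2 WT mouse 2 or Fmr1 WT mouse 4 or 5). The Fmr1 genotype by tissue count of 0 became 1 without the array of Fmr1-KO mouse 1, and the strain by tissue count of 11 became 3 after quantile normalization. The cause of these changes was not tested. The contrast of the mutants in blood called 16 to 20 members with mice left out. No member called in a comparison changed sign there in any alternative run. Members not called did when single mice were left out, in blood 13 for Fmr1-KO and 16 for Tsc2+/-, and in cerebellum 18 for Fmr1-KO (B2m among them) and 20 for Tsc2+/- (H2-Ob and Ciita among them).

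Between genotypes the replicate numbers name different mice, whose deviations correlated between -0.03 and 0.02 in Fmr1 blood, -0.01 and 0.23 in Fmr1 cerebellum, -0.07 and 0.14 in Tsc2 blood and -0.09 and 0.16 in Tsc2 cerebellum. With the number as a replicate block the counts became 0 for Fmr1-KO over both tissues, 0 for Fmr1-KO in blood, and 0 for the WT mice over both tissues, in blood and in cerebellum. These counts too are given without the share of all probe sets.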

Other observations

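The classical class I genes share their probe sets with each other. The brighter probe set naming H2-D1, LOC547349 and H2-K1 stood at 6899.7, 6546 and 7599 in Tsc2+/- blood and 5739, 6249 and 4199 in WT blood, and at 4207, 4117, 4131, 4409 and 3646 in Fmr1-KO blood and 5226, 4577, 4339, 4507 and 4426 in WT blood. Its log2 difference was -1.81 between WT cerebellum and blood, while the dimmer probe set of the same genes differed by -3.71.

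The probe set naming H2-T9, H2-T22 and H2-T10 did not show the gap between low and high C57BL/6 mice that the probe set of H2-T10 alone showed in blood. It stood at 780.3, 663, 597, 728 and 702 in Fmr1-KO blood and 734, 759, 713, 750.1 and 802 in WT blood. The low mice by H2-T10 were numbers 1 and 5 of the Fmr1-KO group and 2 and 5 of the WT group.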
